A study of Sus scrofa with 9 samples.

Results

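Spheroids grown from the submucosal glands of the pig esophagus (ESMG) were compared with squamous tissue, the lining that overlies these glands. The samples were chosen by their labelled tissue, which gave 6 of the 9 arrays of the study: 3 of spheroids (pigs 1, 2 and 3) and 3 of squamous tissue (pigs 37, 39 and 40). The other 3 arrays held ESMG dissected from pigs 37, 39 and 40, and their values are set beside the results as the tissue the spheroids came from. Total RNA of each sample was hybridised to an Affymetrix PorGene 1.0 ST array, which measures each gene with a group of short probes called a probe set.

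The spheroids were grown inside growth-factor-reduced Matrigel, a basement-membrane gel, under Advanced DMEM/F12. This medium held recombinant human epidermal growth factor (EGF) at 50 ng/ml, HEPES at 10 mM and the supplements B27 and N2. Squamous tissue and ESMG were labelled as control pig esophagus, with no culture. No genotype, age or further treatment was given for any group. RNA came from tissue with the RNeasy Universal Mini kit but from spheroids with the RNeasy Micro kit, so kit, culture and group cannot be told apart. The sources used here do not say whether the spheroid pigs and the tissue pigs are the same animals, and the comparison is therefore unpaired. The series states biological replicates and no technical ones. The p-values and standard errors (SE) rest on the spread within all 3 groups, so the ESMG arrays count in them too.

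Esophageal submucosal glands are branched exocrine glands whose acini secrete mucus, antimicrobial proteins and bicarbonate, and whose ducts cross the lining to reach the lumen. Ducts and acini are simple epithelia that carry the keratins KRT8, KRT18 and KRT19, with a layer of basal or myoepithelial cells around them. The lining is a stratified squamous epithelium, in which basal cells divide on a laminin-rich basement membrane, leave it, and build up cornified-envelope proteins as they move upward. Gland ducts are studied as a source of progenitor cells that can repair the lining or give rise to columnar epithelium.

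The labels were checked against defining genes. The spheroid arrays carried epithelial and simple-epithelial genes (EPCAM between 10.15 and 10.75, KRT8 between 11.21 and 11.74, all on the log2 scale). The squamous arrays carried CRNN, a protein of the upper esophageal lining, between 12.66 and 12.72. The squamous arrays also held the deeper wall: ACTA2, the actin of smooth muscle, lay between 12.57 and 12.88, and the collagen gene COL1A2 between 11.69 and 12.02. Not analysed here are the keratins KRT4, KRT7, KRT13 and KRT14 and the genes VIM, TP63, MKI67 and MUC5B. The arrays hold bulk RNA, in which fewer cells of a type and less RNA per cell cannot be told apart.

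The squamous array of pig 37 stood apart in gland genes. AGR2, a folding enzyme of mucins, was at 8.27 there against 5.24 and 6.03 in pigs 39 and 40. The mucous cell protein CLCA1 was at 9.56 against 6.32 and 7.06, and the airway and gland protein BPIFA1 at 9.81 against 6.31 and 6.35. Gland results are therefore given with and without this array where it moved them by more than 1.5-fold.

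Levels are given as log2 RMA values, on which 1 unit is a doubling, and 12217 genes with a single symbol were tested. A gene was called higher or lower at a Benjamini-Hochberg adjusted p under 0.05 in limma together with a fold of at least 2. Array medians lay between 6.84 and 7.04. Genes are not independent replicates; across them, correlations were 0.983 to 0.990 among spheroid arrays, 0.980 to 0.987 among squamous arrays and 0.880 to 0.893 between the groups. The first principal component of the 6 arrays held 83.6% of the variance, with spheroids between 49.3 and 50.2 and squamous tissue between -50.9 and -47.5. The number of arrays, 3 per group, limits the precision, and the median standard error of a difference was 0.17.

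Spheroids differed from squamous tissue in 2035 genes, which is 16.7% of those tested: 1052 were higher in spheroids (8.61%) and 983 lower (8.05%). Higher genes made up 51.7% of the calls, and 62.2% (1370 higher, 834 lower) when all arrays were set to the same median, a scaling that moved the median difference of all genes from 0.03 to 0.16. With quantile normalization that median was 0.11. Large falls outnumbered large rises. Without the fold minimum, 5002 genes (40.9%) passed the adjusted p. At least 4-fold differences were found in 183 higher and 339 lower genes, and at least 16-fold differences in 19 higher and 54 lower genes. Of all genes, 6162 (50.4%) had 3 spheroid values that did not overlap the 3 squamous values. Called or non-overlapping genes in the lists below are to be read against these shares. Of 14401 probe sets without a single symbol, 1940 (13.5%) were called.

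**Figure D1:**
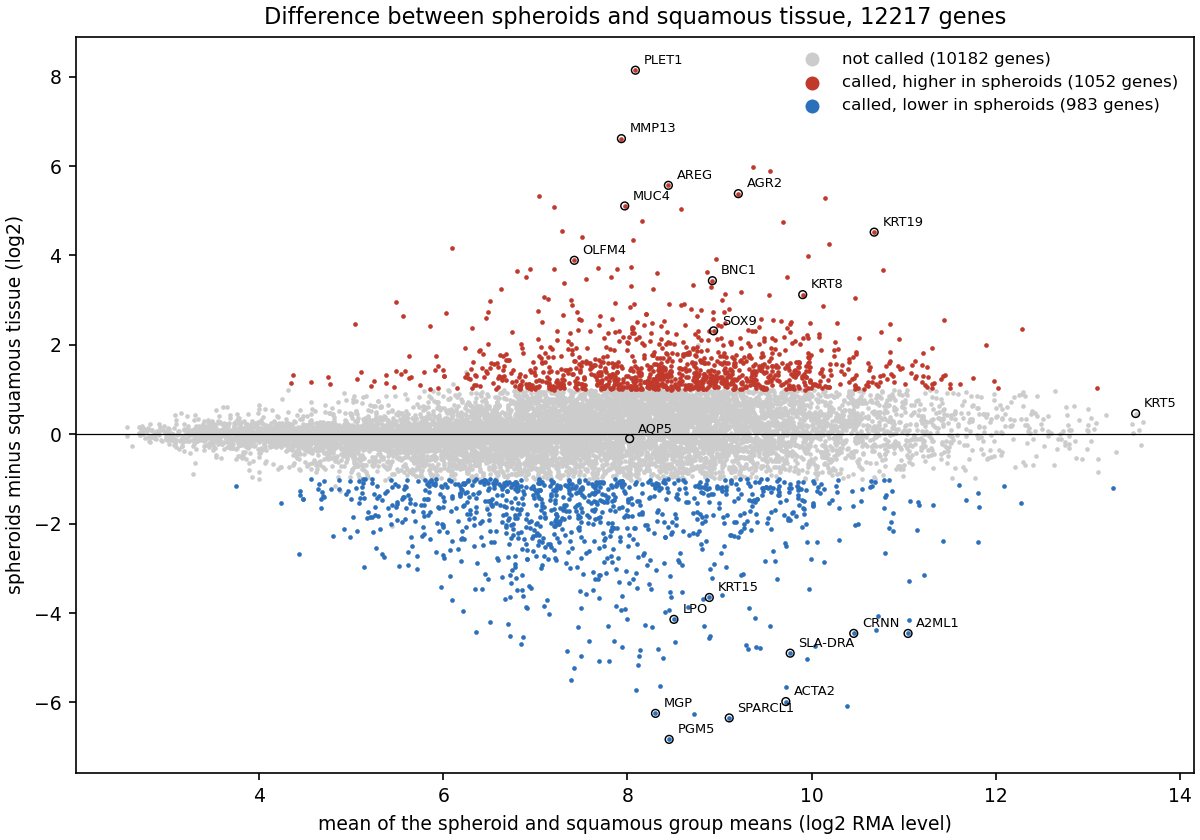
Each point is a gene, with its mean log2 RMA level in squamous tissue and spheroids on the x axis. The y axis is the log2 difference, spheroids minus squamous tissue. Called genes are coloured by direction. Selected genes are named, among them KRT5 and AQP5, which were not called. The rises reach 8.14 (PLET1) and the falls -6.83 (PGM5), and 2035 of 12217 genes are coloured.

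The largest rise of all genes was that of PLET1, a cell-surface protein that marks progenitor cells in several epithelia of the mouse. Its level was 12.51, 11.78 and 12.19 in the 3 spheroid arrays and 3.93, 4.19 and 3.92 in the squamous arrays. Every spheroid array lay far above every squamous array. The difference was 8.14 (SE 0.28, 283-fold, adjusted p = 6.3e-09). The ESMG arrays had 3.79, 4.53 and 5.02, close to the squamous ones, so the high level was seen in the cultured spheroids alone among these 3 groups. The squamous mean was dimmer than the lower quartile of each array, a range where RMA compresses differences.

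Genes of mucous and serous secretion were split. Of 28 measured, 11 were higher in spheroids and 4 lower, against 8.61% and 8.05% of all genes. The median difference was 0.56 against 0.03 over all genes. AGR2 was at 12.04, 12.01 and 11.64 in spheroids against 8.27, 5.24 and 6.03 in squamous tissue. The groups did not overlap, which held for 50.4% of all genes, and pig 37 was the squamous array nearest to the spheroids. The difference was 5.38 (SE 0.57, 41.7-fold, adjusted p = 1.86e-05), 6.26 without pig 37, 4.75 without pig 39 and 4.40 with array weights, which give arrays that stray from the fit less say. WFDC2, a secreted protease-inhibitor-like protein of glands, was at 12.10, 12.52 and 12.33 against 9.37, 7.08 and 7.73. It was 19.1-fold higher (4.26, SE 0.44, adjusted p = 1.48e-05), and its difference was 4.91 without pig 37 and 3.26 with array weights. ESMG levels of both genes were close to those of the spheroids: 12.16 to 12.88 for AGR2 and 12.29 to 12.83 for WFDC2.

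The membrane-bound mucins were also higher in spheroids, and here ESMG lay near squamous tissue. MUC4 was at 10.41, 10.88 and 10.28 in spheroids, 5.67, 5.23 and 5.35 in squamous tissue and 6.11 to 6.54 in ESMG. MUC1 was at 8.65, 8.86 and 8.45, against 5.18, 5.36 and 4.89, with ESMG between 5.84 and 6.05. The differences from squamous tissue were 5.11 (SE 0.19, 34.5-fold, adjusted p = 1.04e-08) for MUC4 and 3.51 (SE 0.16, 11.4-fold, adjusted p = 3.9e-08) for MUC1. MUC20, another mucin of the cell surface, was 4.84-fold higher. In each case the lowest spheroid array exceeded the highest squamous array, which held for 28.6% of all genes.

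Other secreted products were also higher in spheroids than in squamous tissue, and CLCA1 and PIGR were higher still in ESMG. CLCA1 was at 10.88, 11.06 and 10.54 in spheroids and between 13.25 and 13.82 in ESMG. Its difference from squamous tissue was 3.18 (SE 0.61, adjusted p = 0.0013), 4.13 without squamous pig 37, 2.52 without squamous pig 39 and 2.03 with array weights. LCN2, an iron-siderophore-binding defence protein, was 4.10-fold higher in spheroids, and SLPI, an antiprotease of mucosal fluids, 3.14-fold. The antibody transporter PIGR was 2.91-fold higher (1.54, and 0.89 with array weights, under the fold minimum) and was at 8.82 to 9.21 in spheroids against 11.96 to 12.56 in ESMG. BPIFA1 was 8.79-fold higher (3.14, SE 0.75, adjusted p = 0.00566). Its difference was 4.29 without squamous pig 37, 2.54 without squamous pig 39 and 1.81 with array weights. The ESMG arrays were lower than the spheroid arrays in BPIFA1, at 8.33 to 10.00 against 10.39 to 10.75, and near them in LCN2, at 8.76 to 8.87 against 8.74 to 9.17.

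Some major gland products were not higher in spheroids. MUC19, a gel-forming mucin, was at 6.24, 6.36 and 6.17 in spheroids and 7.45, 6.06 and 6.15 in squamous tissue, overlapping ranges, against 11.29 to 12.73 in ESMG. Its difference from squamous tissue was -0.30 (SE 0.39, adjusted p = 0.607). LPO, the peroxidase of saliva and other gland fluids, was at 6.54, 6.61 and 6.16 in spheroids and at 10.79, 10.74 and 10.20 in squamous tissue. It was 17.7-fold lower in spheroids (-4.14, SE 0.22, adjusted p = 1.19e-07), and ESMG had 11.67 to 12.31. The salivary proteins SCGB1D1 and PHEROC, both carriers of small lipophilic molecules, were also called lower, although the groups overlapped. Squamous pig 39 was at 5.18 for SCGB1D1 and 5.08 for PHEROC, against 5.29 and 5.20 in spheroid pig 2. The differences of SCGB1D1 and PHEROC were -1.84 (SE 0.68, adjusted p = 0.0489) and -2.71 (SE 0.74, adjusted p = 0.0118). SCGB1D1 lost its call in 11 of 18 settings: it gave -1.07 (adjusted p = 0.2) without squamous pig 37, but -2.60 (adjusted p = 0.00653) without squamous pig 39 and -3.10 with array weights. PHEROC lost its call in 1 setting, without squamous pig 40 (-2.41, adjusted p = 0.0508). It gave -1.87 (adjusted p = 0.0443) without squamous pig 37, -3.85 (adjusted p = 2.91e-05) without squamous pig 39 and -4.01 with array weights. The ESMG arrays had 10.67 to 12.78 for SCGB1D1 and 11.80 to 12.69 for PHEROC.

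Genes of simple glandular and ductal epithelium were higher more often than lower: of 32 measured, 14 were higher and 3 lower. The shares over all genes were 8.61% and 8.05%, and the median difference of the list was 0.69. KRT19, a keratin of ducts, was at 12.74, 12.83 and 13.26 in spheroids against 8.80, 8.15 and 8.31 in squamous tissue. It was 23.0-fold higher (4.52, SE 0.23, adjusted p = 9.23e-08). KRT18 was at 9.41, 9.60 and 9.74 against 6.38, 5.97 and 5.84 (3.52, SE 0.25, 11.5-fold, adjusted p = 1.05e-06). KRT8, its partner in simple epithelia, rose by 3.12 (SE 0.25, 8.71-fold, adjusted p = 2.57e-06). None of the 3 keratins overlapped between the groups, which also held for 50.4% of all genes. In ESMG the keratins were at 10.73 to 11.50 (KRT19), 8.73 to 9.86 (KRT18) and 10.76 to 11.60 (KRT8).

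Regulators and surface proteins of the same list followed. FOXA1, a pioneer transcription factor of glandular epithelia, was at 9.75, 9.82 and 9.96 in spheroids against 7.29, 7.78 and 7.13, and between 8.87 and 9.98 in ESMG. It was 5.43-fold higher than in squamous tissue (2.44, SE 0.26, adjusted p = 1.95e-05). TFCP2L1, a transcription factor of salivary and kidney ducts, was 5.67-fold higher. BHLHA15, which controls the secretory apparatus of exocrine cells, was 2.72-fold higher and ST14, the membrane protease matriptase, 4.26-fold. For ST14 the ESMG levels, 8.89 to 9.02, lay near those of squamous tissue, 8.69 to 8.89. EPCAM, an adhesion protein of simple epithelia, was 3.12-fold higher (1.64, SE 0.25, adjusted p = 0.000247). TSPAN1, a tetraspanin of gland cells, was 5.98-fold higher with a difference of 2.58, and 3.29 without squamous pig 37 and 1.71 with array weights.

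The lower genes of the ductal list were ELF5, KIT and GRHL3. ELF5, a transcription factor of mammary and salivary epithelium, was at 7.40, 7.63 and 7.73 in spheroids against 10.40, 10.51 and 10.73 in squamous tissue and 9.81 to 10.49 in ESMG. It was 7.79-fold lower in spheroids (-2.96, SE 0.19, adjusted p = 3.97e-07). KIT, a receptor carried by salivary progenitors and also by mast cells, was 3.49-fold lower (-1.80, SE 0.26, adjusted p = 0.000185). The mast cell gene MS4A2 was 4.83-fold lower in the same arrays. Its part in the value of KIT was not tested. GRHL3, a regulator of barrier formation, was 3.24-fold lower, while its relative GRHL2 differed by 0.35 (adjusted p = 0.198).

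Among 29 measured genes used as markers of epithelial and gland progenitors, 14 were higher in spheroids and 2 lower, against 8.61% and 8.05% of all genes. The median difference of these markers was 0.92. After PLET1, the largest rise was that of OLFM4, a secreted glycoprotein of intestinal stem cells. It was at 9.09, 8.86 and 10.15 in spheroids and 5.79, 5.43 and 5.22 in squamous tissue, a difference of 3.89 (SE 0.60, 14.8-fold, adjusted p = 0.000305). ESMG spread widely for this gene, from 7.13 to 10.07. SOX9, a transcription factor of ductal progenitors in many glands, was at 9.86, 10.65 and 9.77 against 7.79, 8.20 and 7.35. It was 4.97-fold higher (2.31, SE 0.27, adjusted p = 4.31e-05), with ESMG between 8.99 and 9.64. All spheroid values of both genes exceeded all squamous values, which held for 28.6% of all genes.

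Several further progenitor genes rose. CLU, a secreted chaperone seen in regenerating epithelium, was at 10.14, 10.60 and 11.61 in spheroids and 9.60, 8.13 and 8.12 in squamous tissue (2.17, SE 0.42, adjusted p = 0.00148). With array weights the difference was 1.04 (adjusted p = 0.0128), just past the fold minimum. CLU was at 10.68 to 11.32 in ESMG. ID2, an inhibitor of differentiation factors, was 4.45-fold higher, ALCAM, an adhesion molecule, 2.86-fold, and NGFR, a receptor on basal cells of the esophagus, 2.56-fold. Levels of NGFR in ESMG, 7.65 to 7.90, lay with those of squamous tissue, 7.63 to 7.85.

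Markers of other stem cell states did not follow. LRIG1, a brake on EGF receptor signalling that marks quiescent stem cells, was at 5.10, 5.29 and 5.54 in spheroids against 6.84, 7.02 and 7.01 in squamous tissue and 7.38 to 8.43 in ESMG. It was 3.13-fold lower in spheroids (-1.64, SE 0.23, adjusted p = 0.000146). LGR6, a receptor for R-spondins, was 2.14-fold lower (-1.10), a call that was lost without spheroid pig 3 (-0.96) with equal array medians (-0.97) and with array weights (-0.82). PROM1, a marker of ductal and stem cells, was at 6.82, 6.01 and 7.37 in spheroids and 5.82, 5.93 and 6.52 in squamous tissue, with overlap. Its difference was 0.64 (95% confidence interval -0.06 to 1.34, adjusted p = 0.136), and it passed the rule at 1.00 without spheroid pig 2 (adjusted p = 0.0176). SOX2, LGR4, BMI1, MYC, KLF5 and AXIN2 lay between -0.38 and 0.32 and were not called.

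**Figure D2:**
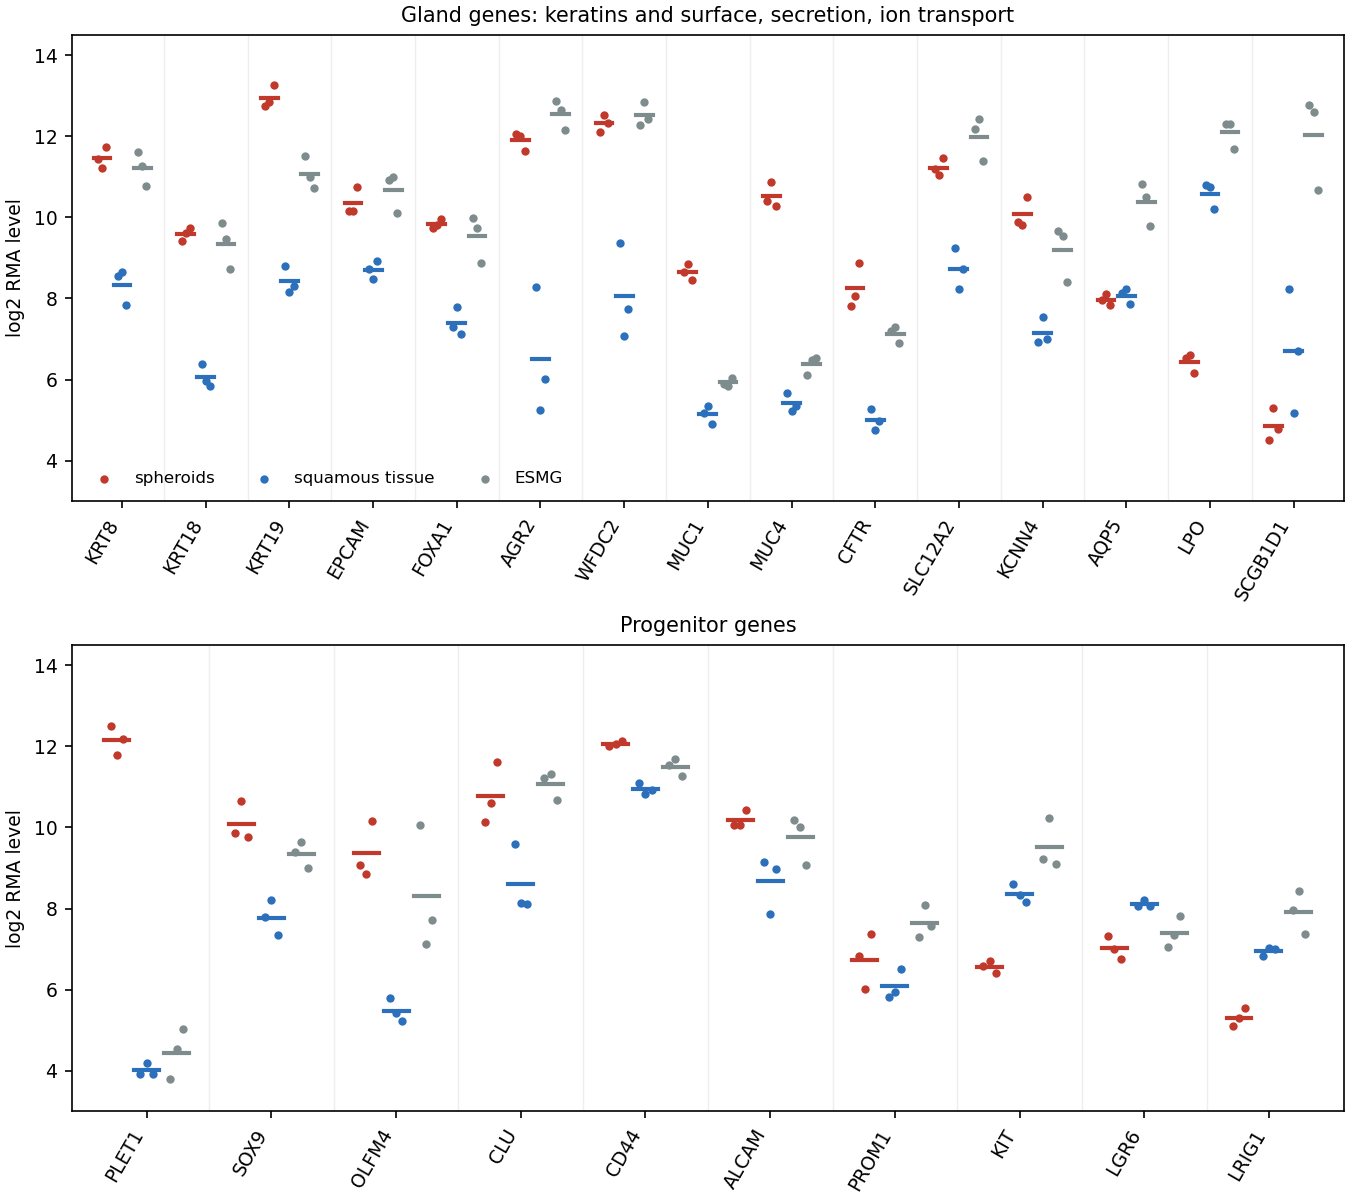
Log2 RMA level of gland, duct, progenitor and transport genes on each array; points are single arrays of spheroids, squamous tissue and ESMG, and bars are group means of 3 arrays. Spheroids lie with ESMG for KRT8, KRT18 and AGR2, near squamous tissue for AQP5, and apart from both for PLET1 (11.78 to 12.51 against 5.02 or less).

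Ion and fluid transport genes went both ways, with 6 of 26 higher and 6 lower, against 8.61% and 8.05% of all genes. Their median difference was 0.08. Those that rose included the channel CFTR and the chloride carrier SLC12A2. CFTR, the apical chloride and bicarbonate channel, was at 7.82, 8.07 and 8.87 in spheroids against 5.27, 4.75 and 4.97 in squamous tissue, and 6.90 to 7.29 in ESMG. It was 9.51-fold higher than in squamous tissue (3.25, SE 0.25, adjusted p = 1.52e-06). SLC12A2, which loads chloride from the basal side, was at 11.18, 11.04 and 11.46 against 9.25, 8.24 and 8.71 (2.49, SE 0.29, 5.62-fold, adjusted p = 3.52e-05). The potassium channel KCNN4 was 7.54-fold higher, the sodium-proton exchanger SLC9A2 5.06-fold and the sodium pump subunit ATP1B1 3.60-fold. For these 5 genes the 2 groups did not overlap, which held for 50.4% of all genes.

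The transport genes that fell included AQP3, a water and glycerol channel of squamous epithelium, at 11.17, 10.32 and 11.30 against 12.35, 12.50 and 12.40 (-1.48, SE 0.22, adjusted p = 0.000272). The proton pump subunit ATP6V1B1 was 4.05-fold lower, the potassium channel KCNMA1 3.15-fold and the carbonic anhydrase CA12 2.68-fold. AQP5, the apical water channel of serous acini, did not differ detectably from squamous tissue. It was at 7.97, 8.10 and 7.85 in spheroids and 8.13, 8.23 and 7.86 in squamous tissue, and 9.78 to 10.82 in ESMG. The difference was -0.10 (95% confidence interval -0.60 to 0.41, adjusted p = 0.784), and 0.03 when array medians were set equal. CA6, a carbonic anhydrase secreted by salivary acini, was at 5.21 to 5.43 in spheroids and 5.08 to 5.51 in squamous tissue (0.01, adjusted p = 0.983), with 6.45 to 7.96 in ESMG.

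Of 25 genes of gastric and intestinal columnar epithelium, 2 were higher and 1 lower, close to the shares over all genes (8.61% and 8.05%), and the median was -0.03. MUC13, a membrane mucin of the intestine, was at 9.61, 9.77 and 9.84 in spheroids against 4.65, 4.66 and 4.66 in squamous tissue (5.08, SE 0.56, 33.9-fold, adjusted p = 2.56e-05). The squamous level is a dim value, so this fold depends on how RMA treats dim probes. In ESMG the values were 7.54, 4.60 and 4.94, with pig 37 apart, and this spread counts in the SE of 0.56. ANPEP, an aminopeptidase of brush borders and glands, was 6.49-fold higher, with 8.90 to 9.67 in ESMG and 9.25 to 9.73 in spheroids. VSIG1, a junction protein of stomach epithelium, was 3.70-fold lower. The intestinal factor CDX2 differed by 0.22 (adjusted p = 0.258), HNF4A by 0.06 (adjusted p = 0.833) and GATA6 by -0.32 (adjusted p = 0.327).

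The upper layers of the lining were represented by 26 genes, of which 11 were lower in spheroids and 1 higher (median -0.73). The shares over all genes were 8.05% lower and 8.61% higher. CRNN was at 8.06, 7.93 and 8.70 in spheroids against 12.68, 12.72 and 12.66 in squamous tissue (-4.46, SE 0.20, 21.9-fold lower, adjusted p = 3.24e-08). A2ML1, a protease inhibitor of the cornified layers, was at 8.72, 8.81 and 8.93 against 13.20, 13.29 and 13.34 (-4.46, SE 0.15, 22.0-fold lower, adjusted p = 6.3e-09). CNFN, a cornified-envelope protein, was 8.89-fold lower. The ESMG arrays were high in these genes too, with CRNN between 12.12 and 12.54 and A2ML1 between 12.59 and 13.05. The ESMG and squamous arrays therefore both carried upper-layer genes, and the spheroid arrays alone were low.

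The fall covered regulators and envelope proteins of the same programme. PRDM1, a transcription factor of terminal differentiation, was 5.39-fold lower, and the protease inhibitor SERPINB1 5.32-fold. PPL, the envelope and desmosome protein periplakin, was at 9.44, 9.47 and 9.46 in spheroids and 11.43, 11.47 and 11.58 in squamous tissue (-2.04, SE 0.15, adjusted p = 1.43e-06). TGM1, the enzyme that crosslinks the envelope, was 3.20-fold lower and SCEL 2.81-fold. ALOX12, a lipoxygenase, was the exception at 4.05-fold higher. The calprotectin genes S100A8 and S100A9 differed by -0.30 (adjusted p = 0.325) and -1.15 (adjusted p = 0.0603). Neither was called, although S100A9 passed the rule in 6 settings. Desmoplakin, DSP, was high in all 6 arrays (12.44 to 13.18) and 1.44-fold lower in spheroids, under the fold minimum.

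The basal layer of the lining gave the opposite picture, with 9 of 17 genes higher, 2 lower and a median of 1.17. Over all genes 8.61% were higher and 8.05% lower. BNC1, a transcription factor of basal cells, was at 11.02, 10.36 and 10.53 in spheroids against 7.17, 7.02 and 7.43 in squamous tissue and 6.28 to 6.40 in ESMG. It was 10.8-fold higher than in squamous tissue (3.44, SE 0.18, adjusted p = 1.12e-07). LAMB3, a chain of the basement-membrane laminin-332, was at 9.96, 10.24 and 10.05 against 7.37, 7.53 and 7.40 (2.65, SE 0.13, 6.28-fold, adjusted p = 6.41e-08). Its ESMG levels were 7.40 to 7.50. LAMA3, another chain of that laminin, was 2.31-fold higher, and COL17A1, a hemidesmosome collagen, 2.25-fold. The integrin chains that bind this laminin were higher as well: ITGA3 5.66-fold (2.50, SE 0.17, adjusted p = 6.43e-07) and ITGB4 4.89-fold (2.29, SE 0.13, adjusted p = 2.28e-07).

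Keratins of the basal layer did not follow its adhesion genes. KRT5, the basal keratin, was at 13.89, 13.69 and 13.69 in spheroids and 13.15, 13.33 and 13.39 in squamous tissue. The spheroid arrays were slightly higher without overlap, but the difference of 0.46 (95% confidence interval before adjustment 0.06 to 0.86, adjusted p = 0.0622) was not called. KRT15, a keratin of basal and slow-cycling cells, was at 6.55, 8.10 and 6.54 in spheroids against 10.72 ± 0.25 (SD, n = 3) in squamous tissue, 12.6-fold lower (-3.65, SE 0.39, adjusted p = 2.06e-05). FGFR2, a growth factor receptor of epithelia, was 3.22-fold lower.

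Of 24 genes for laminin adhesion and integrins, 12 were higher and 2 lower (median 1.05), against 8.61% and 8.05% of all genes. The lower count was near its share. The list shares 6 of its called members with the basal list. FERMT1, the epithelial integrin activator kindlin-1, was 5.21-fold higher. Integrin ITGB6, induced in healing epithelium, was 3.98-fold higher, and the heparan sulfate carrier SDC1 2.86-fold. The fibronectin gene FN1 was at 9.28, 9.28 and 9.84 in spheroids and 12.49, 11.64 and 12.25 in squamous tissue (-2.66, SE 0.25, adjusted p = 8.04e-06), and its receptor chain ITGA5 was 5.68-fold lower. Stromal collagens fell in the same arrays (COL1A2, 27.6-fold lower). Their part in the fall of FN1 and ITGA5 was not tested.

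Cell junction genes were higher in 9 of 28 cases and lower in 3 (median 0.38), against 8.61% and 8.05% of all genes. LSR, which builds tight junctions where 3 cells meet, was at 10.62, 10.90 and 10.51 in spheroids against 7.14, 7.19 and 6.81 (3.63, SE 0.15, 12.4-fold, adjusted p = 2.07e-08). GJB5, a gap junction protein, was 5.34-fold higher and PKP2, a desmosome plakophilin of simple epithelia, 3.03-fold. The fall was led by CLDN17, a claudin outside the list, at 5.84, 5.10 and 5.70 in spheroids against 11.17, 11.01 and 11.34 in squamous tissue (-5.62, SE 0.23, 49.3-fold lower, adjusted p = 1.8e-08). CLDN11 was 3.90-fold lower, and DSC1, a desmosomal cadherin of upper layers, 2.37-fold.

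**Figure D3:**
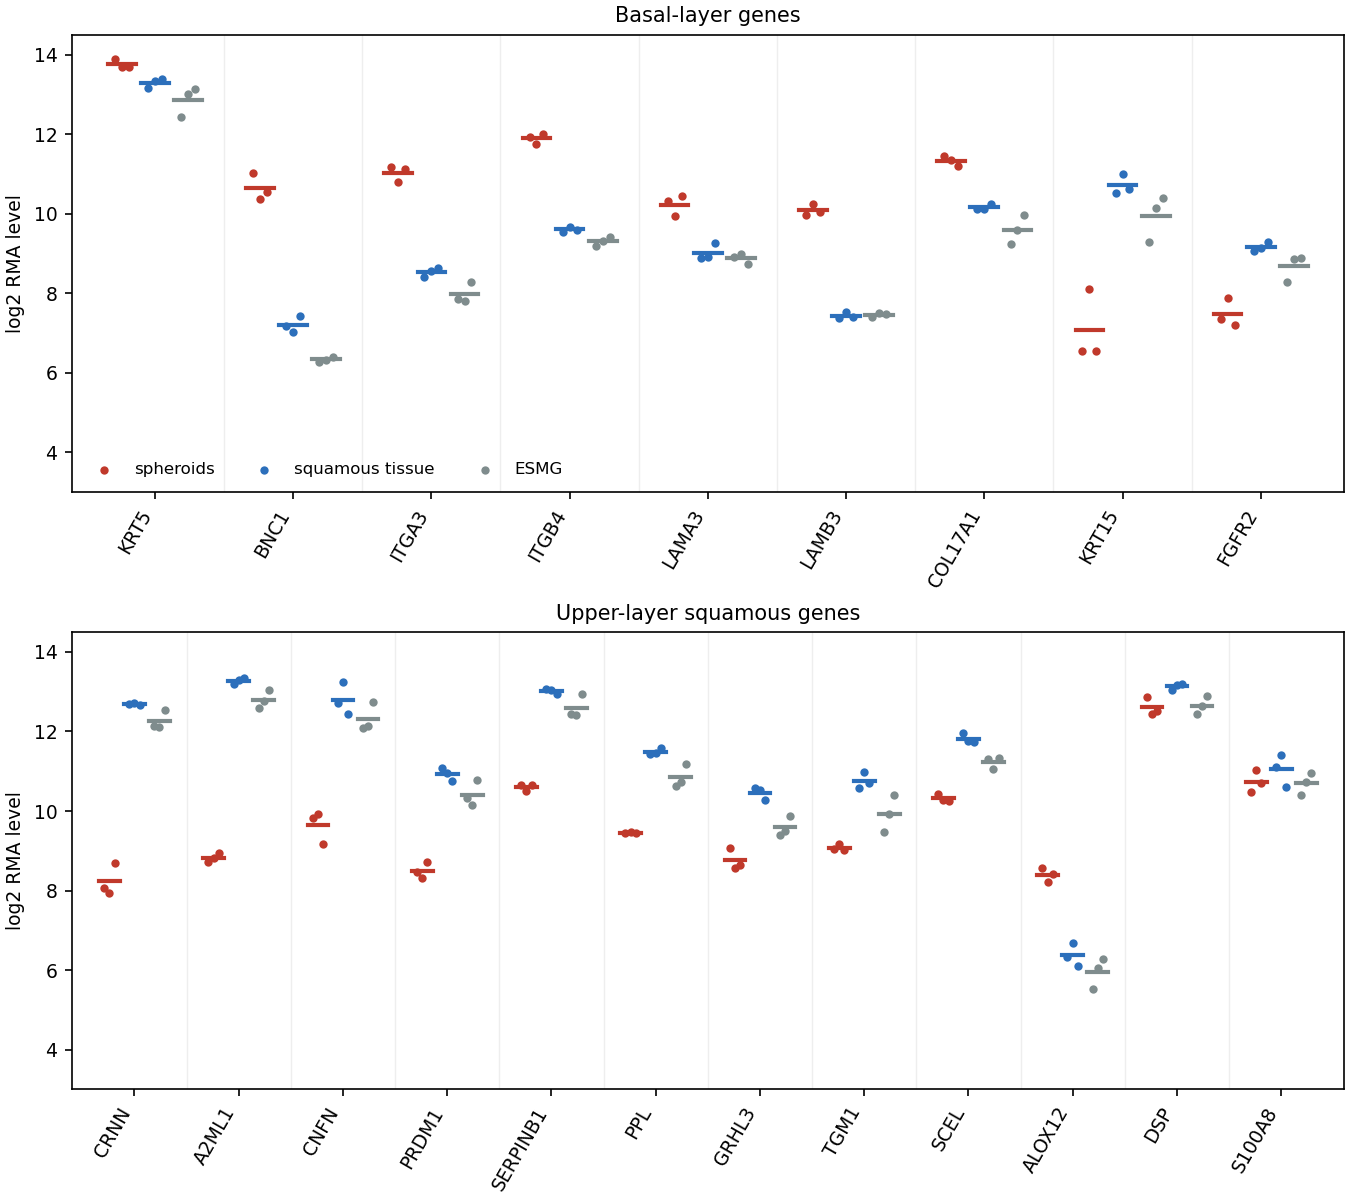
Log2 RMA level of basal-layer genes (top) and upper-layer squamous genes (bottom) on each array, with points for single arrays of spheroids, squamous tissue and ESMG and bars for means of 3 arrays. Spheroids lie above both tissues for BNC1, ITGA3, ITGB4 and LAMB3, below both for KRT15, and 2.04 to 4.46 below squamous tissue for CRNN, A2ML1, CNFN, PRDM1, SERPINB1 and PPL.

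The culture medium contained EGF. Of 30 genes for EGF receptor ligands and the ERK response, 18 were higher in spheroids and 1 lower (median 1.42). The shares over all genes were 8.61% and 8.05%. No array of spheroids without EGF is among the samples, so the growth factor and the culture cannot be told apart. Among ligands, AREG was at 11.54, 11.03 and 11.11 in spheroids against 5.78, 5.08 and 6.12 in squamous tissue and 4.67 to 5.88 in ESMG. It was 47.5-fold higher than in squamous tissue (5.57, SE 0.32, adjusted p = 2.17e-07). EREG was 5.02-fold higher and TGFA 2.63-fold. For both the spheroid values lay above the squamous ones without overlap, which held for 28.6% of all genes. HBEGF (0.65, adjusted p = 0.0636) and BTC (-0.22, adjusted p = 0.649) were not called.

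Targets and feedback genes of the pathway rose, with exceptions. IER3, an early-response survival gene, was at 12.54, 12.80 and 12.50 in spheroids against 8.78, 8.92 and 9.12 (3.67, SE 0.36, 12.7-fold, adjusted p = 9.68e-06). PTGS2, the inducible prostaglandin synthase, spread in spheroids, with 10.83 in pig 1, 9.87 in pig 3 and the lowest value in pig 2, against 6.02 to 6.24 in squamous tissue (3.73, SE 0.43, 13.3-fold, adjusted p = 3.5e-05). PHLDA1 was 8.62-fold higher, the chromatin protein HMGA1 8.31-fold, the ERK phosphatase DUSP4 7.71-fold and the transcription factor ETV4 6.28-fold. The immediate early gene EGR1 and MYC showed differences of -0.01 (adjusted p = 0.995) and 0.01 (adjusted p = 0.988). EGR1 overlapped widely, at 9.11 to 10.09 in spheroids and 8.68 to 10.83 in squamous tissue, and gave 0.61 (adjusted p = 0.359) without squamous pig 40.

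CXCL8, the neutrophil-attracting interleukin-8, was counted in the same list. It was at 12.54, 13.00 and 11.95 in spheroids, 7.66, 5.55 and 6.63 in squamous tissue and 8.98, 10.24 and 10.60 in ESMG. The 3 groups did not overlap with each other, and spheroids were 59.2-fold above squamous tissue (5.89, SE 0.51, adjusted p = 4.05e-06). The leukocyte gene PTPRC, which encodes CD45, was 4.66-fold lower in spheroids than in squamous tissue, while the leukocyte gene AIF1 was 2.40-fold higher. Of 27 leukocyte genes, 11 were lower and 2 higher, against 8.05% and 8.61% of all genes. The part of leukocytes in the CXCL8 levels was not tested.

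Secreted proteases and the plasminogen system held 13 higher and 4 lower genes of 31 (median 0.73), against 8.61% and 8.05% of all genes. MMP13, a collagenase, was at 11.08, 11.49 and 11.15 in spheroids against 4.06, 4.92 and 4.90 in squamous tissue and at most 5.73 in ESMG. It was 97.9-fold higher than in squamous tissue (6.61, SE 0.25, adjusted p = 1.04e-08). MMP12 was 40.0-fold higher, MMP7, matrilysin, 27.1-fold and MMP3, stromelysin, 18.0-fold. Squamous means of MMP13, MMP12 and MMP3 were near the bottom of the scale, so their folds depend on how RMA treats dim probes. PLAU, the plasminogen activator urokinase, was at 11.88, 12.01 and 11.96 against 8.04, 7.39 and 8.46 (3.98, SE 0.29, 15.8-fold, adjusted p = 1.14e-06), and its receptor PLAUR rose by 2.81. PLAU and PLAUR are counted in both lists.

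The 4 lower genes of the list included MMP2, ADAMTS9 and TIMP3. MMP2, a gelatinase, was at 8.11, 7.07 and 6.77 in spheroids against 10.80, 10.34 and 10.43 in squamous tissue (-3.21, SE 0.30, 9.23-fold lower, adjusted p = 7.66e-06). ADAMTS9, a matrix protease, was 10.5-fold lower and the inhibitor TIMP3 3.37-fold. These genes fell in the arrays in which fibroblast and vessel genes also fell. Their part in these results was not tested.

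**Figure D4:**
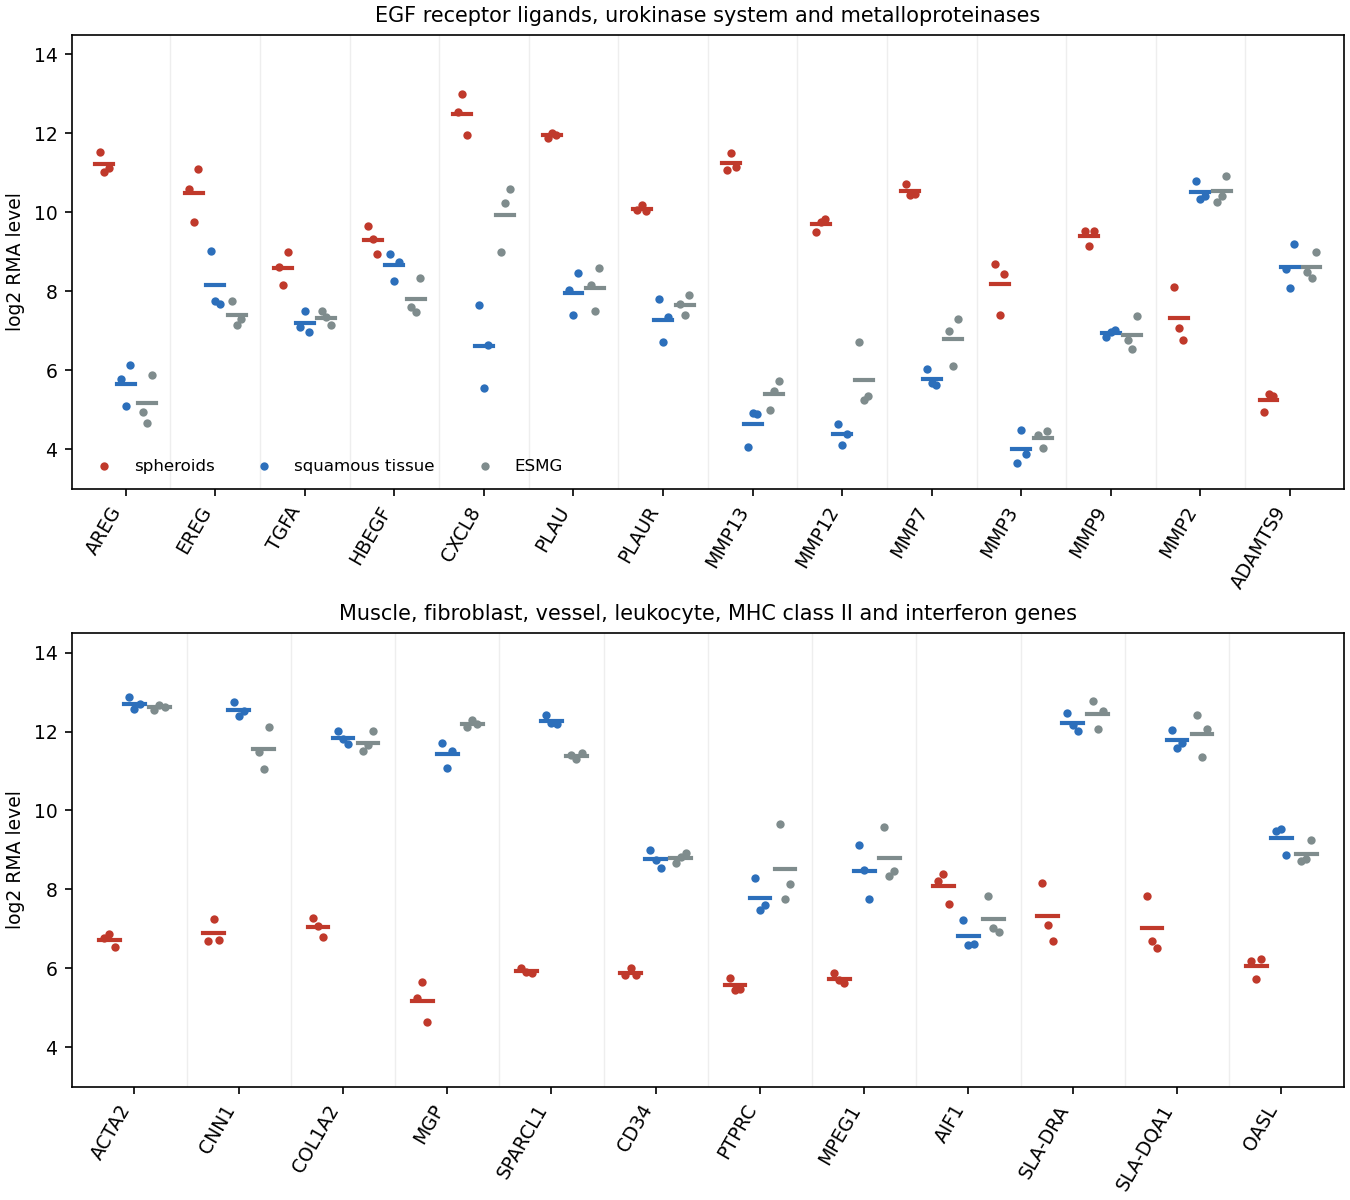
Log2 RMA level of EGF receptor ligands, CXCL8, urokinase genes and metalloproteinases (top) and of muscle, fibroblast, vessel, leukocyte, MHC class II and interferon genes (bottom) on each array; points are single arrays and bars are means of 3. Spheroids lie above both tissues for AREG, PLAU and MMP13 and below both for MMP2, ADAMTS9, ACTA2, COL1A2 and SLA-DRA; AIF1, among the 2 leukocyte genes called higher, lies above both tissues in its mean.

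Mitosis and DNA replication genes were higher in 18 of 35 cases and lower in none, with a median of 1.01. A further 17 were not called, and the shares over all genes were 8.61% higher and 8.05% lower. UBE2C, which tags mitotic proteins for destruction, was at 10.97, 11.19 and 10.64 in spheroids against 8.35, 8.44 and 8.41 in squamous tissue (2.53, SE 0.17, 5.78-fold, adjusted p = 6.43e-07). ORC1, which marks replication origins, was 4.94-fold higher and MYBL2, a cell cycle transcription factor, 4.93-fold. CDK1, the kinase that drives mitosis, was 3.47-fold higher, E2F1 3.37-fold and FOXM1 3.00-fold. TOP2A did not rise: 8.91, 8.34 and 9.14 in spheroids overlapped 8.56, 8.50 and 9.10 in squamous tissue (0.07, adjusted p = 0.83). ESMG levels were near squamous ones, with UBE2C between 7.94 and 8.40 and ORC1 between 6.24 and 6.67.

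Metabolic lists moved in part. Of 17 genes of cholesterol synthesis and uptake, 8 were higher and none lower (median 0.99), against 8.61% and 8.05% of all genes. TM7SF2, a sterol reductase, was 5.76-fold higher (2.53, SE 0.24, adjusted p = 8.31e-06), STARD4, a sterol carrier, 3.81-fold, MVK, mevalonate kinase, 3.36-fold, HSD17B7, a sterol ketoreductase, 3.33-fold and SQLE, squalene epoxidase, 2.87-fold. HMGCS1, the first committed enzyme of the mevalonate pathway, was not called at 0.31. Glycolysis and hypoxia genes were higher in 7 of 27 cases and lower in 3 (median 0.58). Their lower count was near the 8.05% over all genes. NDRG1, a hypoxia-responsive gene, was 3.54-fold higher, VEGFA, the vascular growth factor, 3.14-fold, and the glycolytic enzymes HK2, PKM and ENO1 2.46-fold, 2.45-fold and 2.39-fold.

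PDK4, a kinase that holds pyruvate back from oxidation, moved the other way within that list. It was at 4.54, 4.72 and 4.66 in spheroids, 9.91, 9.90 and 10.59 in squamous tissue and 9.86 to 10.80 in ESMG. All spheroid values were more than 5 log2 units lower, and the difference was -5.49 (SE 0.25, 44.9-fold lower, adjusted p = 3.34e-08). ERO1A, an endoplasmic reticulum oxidase, was 4.50-fold lower.

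Of 51 genes of protein folding and secretion in the endoplasmic reticulum, 6 were higher, near the 8.61% over all genes, and none lower, with a median of 0.43. SEC61G, a translocon subunit, was 3.02-fold higher (1.60, SE 0.19, adjusted p = 3.89e-05), and the signal peptidase subunits SPCS1 and SPCS3 were 2.74-fold and 2.56-fold higher, with the retrieval receptor KDELR1 2.47-fold higher. The chaperone HSPA5 differed by -0.09 and was not called. In ribosome biogenesis 1 of 35 genes was called, against 16.7% of all genes, with a list median of 0.35. Xenobiotic and antioxidant genes split into 12 higher and 5 lower of 34, against 8.61% and 8.05% of all genes. GSR, glutathione reductase, was 3.38-fold higher and GPX2, a gut epithelial peroxidase, 2.46-fold, whereas NQO1, a quinone reductase, was 3.13-fold lower GSTM3 5.13-fold and GPX3, a secreted peroxidase, 4.40-fold lower. FMO2, a flavin monooxygenase, was 31.9-fold lower (SE 0.28 on the log2 scale, adjusted p = 1.92e-07).

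Developmental signalling genes of the Wnt, Notch, BMP and TGF-beta pathways were called both ways, 10 higher and 11 lower of 63 (median -0.02). Over all genes the shares were 8.61% and 8.05%. TCF7, a nuclear effector of Wnt signalling, was at 9.24, 9.37 and 8.99 in spheroids against 6.97, 7.24 and 6.63 (2.26, SE 0.19, 4.78-fold, adjusted p = 3.6e-06). Its relative LEF1 was 4.03-fold lower, at 5.82, 5.88 and 5.54 against 8.17, 7.51 and 7.61. FST, which binds activin, was 3.93-fold higher, TGFB1 3.79-fold and the Notch feedback gene NRARP 2.65-fold. The secreted Wnt antagonists SFRP2 and FRZB were 33.5-fold and 5.35-fold lower, and the Notch target HEY2 5.58-fold lower. SFRP2 has another probe set at -2.71, and its mean over both was -3.89. SFRP2 is also counted among the fibroblast genes.

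Interferon-response genes were lower in 10 of 28 cases and higher in none (median -0.64), against 8.05% and 8.61% of all genes. OASL, an antiviral protein, was at 6.20, 5.72 and 6.23 in spheroids against 9.49, 9.54 and 8.86 (-3.25, SE 0.22, 9.51-fold lower, adjusted p = 7.38e-07). IFI44 was 5.19-fold lower, the chemokine CXCL9 4.34-fold and USP18, which dampens interferon signalling, 3.69-fold. Genes of antigen presentation by MHC class II were lower in 9 of 12 cases (median -1.33). SLA-DRA, a chain of the pig's class II receptor, was at 8.16, 7.11 and 6.69 against 12.46, 12.17 and 12.03 (-4.90, SE 0.32, 29.8-fold lower, adjusted p = 5.17e-07), and SLA-DQA1, SLA-DQB1 and SLA-DMB were 27.2-fold, 9.45-fold and 4.67-fold lower. Class II genes are related in sequence, and whether their probes share signal was not tested. The leukocyte list, whose mean level was 6.27 to 6.38 in spheroids and 6.98 to 7.56 in squamous tissue, moved with them, and its part was not tested.

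Fibroblast, smooth muscle and vessel markers were low in spheroids. Their counts stand against 8.05% of all genes called lower and 8.61% called higher. Of 28 fibroblast and matrix genes, 25 were lower and none higher (median -3.39), with a mean level of 6.70 to 7.01 in spheroids and 9.80 to 10.20 in squamous tissue. MGP, a calcification inhibitor, was at 5.25, 5.66 and 4.63 against 11.71, 11.07 and 11.50 (-6.25, SE 0.24, 75.9-fold lower, adjusted p = 1.12e-08). Of 20 smooth muscle and myoepithelial genes, 18 were lower and none higher (median -2.40). ACTA2 was at 6.78, 6.86 and 6.55 in spheroids against 12.88, 12.57 and 12.69, 63.2-fold lower (-5.98, SE 0.14, adjusted p = 3.52e-10). ACTG2, the actin of visceral muscle, was 68.1-fold lower CNN1, calponin, 50.6-fold and SYNPO2, an actin-binding protein, 27.2-fold. Type XV collagen, COL15A1, was 28.2-fold lower. The largest fall of all genes was that of PGM5, a protein of muscle adhesion sites, at 4.78, 5.26 and 5.08 against 11.70, 11.67 and 12.23 (-6.83, SE 0.30, 114-fold lower, adjusted p = 2.66e-08).

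Vessel genes were lower in 15 of 22 cases and higher in none (median -1.40), against 8.05% and 8.61% of all genes. SPARCL1, a matrix protein of vessels, was at 6.01, 5.91 and 5.88 in spheroids against 12.42, 12.21 and 12.20 (-6.35, SE 0.13, 81.4-fold lower, adjusted p = 1.17e-10). A2M, a protease trap, was 28.2-fold lower, the pericyte gene RGS5 20.0-fold, CD34 7.31-fold and PECAM1 4.74-fold. Leukocyte genes were lower in 11 of 27 cases and higher in 2 (median -0.70). MPEG1, a pore-forming protein of macrophages, was 6.62-fold lower and C1QB, a complement subunit they make, 5.91-fold, with its partner C1QC 5.23-fold lower. AIF1 was at 8.21, 8.40 and 7.63 in spheroids against 7.24, 6.59 and 6.62, 2.40-fold higher (1.27, SE 0.28, adjusted p = 0.00312), and LCP1, an actin-bundling protein of leukocytes, was 2.39-fold higher (0.72 with array weights, under the fold minimum).

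Smaller marker lists gave mixed counts, to be read against the 8.61% of all genes called higher and the 8.05% called lower. Of 8 plasma cell genes, 2 were higher (SDC1 and FKBP11, the latter an endoplasmic reticulum isomerase) and 1 lower (PRDM1). PRDM1 is also counted in the upper-layer list, and SDC1 was named above with the adhesion genes. The plasma cell gene JCHAIN was at 10.00 in the squamous array of pig 37 against 7.09 and 7.17 in the others. Its difference was 0.28 (adjusted p = 0.77), 1.24 (adjusted p = 0.00624) without that array and -0.60 (adjusted p = 0.292) with array weights. Nerve and glia genes were higher in 1 and lower in 3 of 14 cases, with SCN7A, a sodium channel of glia, 4.82-fold lower, the adhesion molecule NCAM1 2.79-fold and the glial cadherin CDH19 2.75-fold. Adipocyte genes were higher in 3 and lower in 2 of 13. LPL, lipoprotein lipase, was 9.19-fold lower, the fatty acid receptor CD36 4.89-fold lower and PPARG, a lipid-sensing nuclear receptor also found in epithelia, 2.84-fold higher. Of 19 skeletal muscle genes, 2 were lower, close to the 8.05% over all genes. Among the 2 was PYGM, muscle glycogen phosphorylase, 14.6-fold lower (-3.87, SE 0.43, adjusted p = 2.53e-05).

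**Figure D5:**
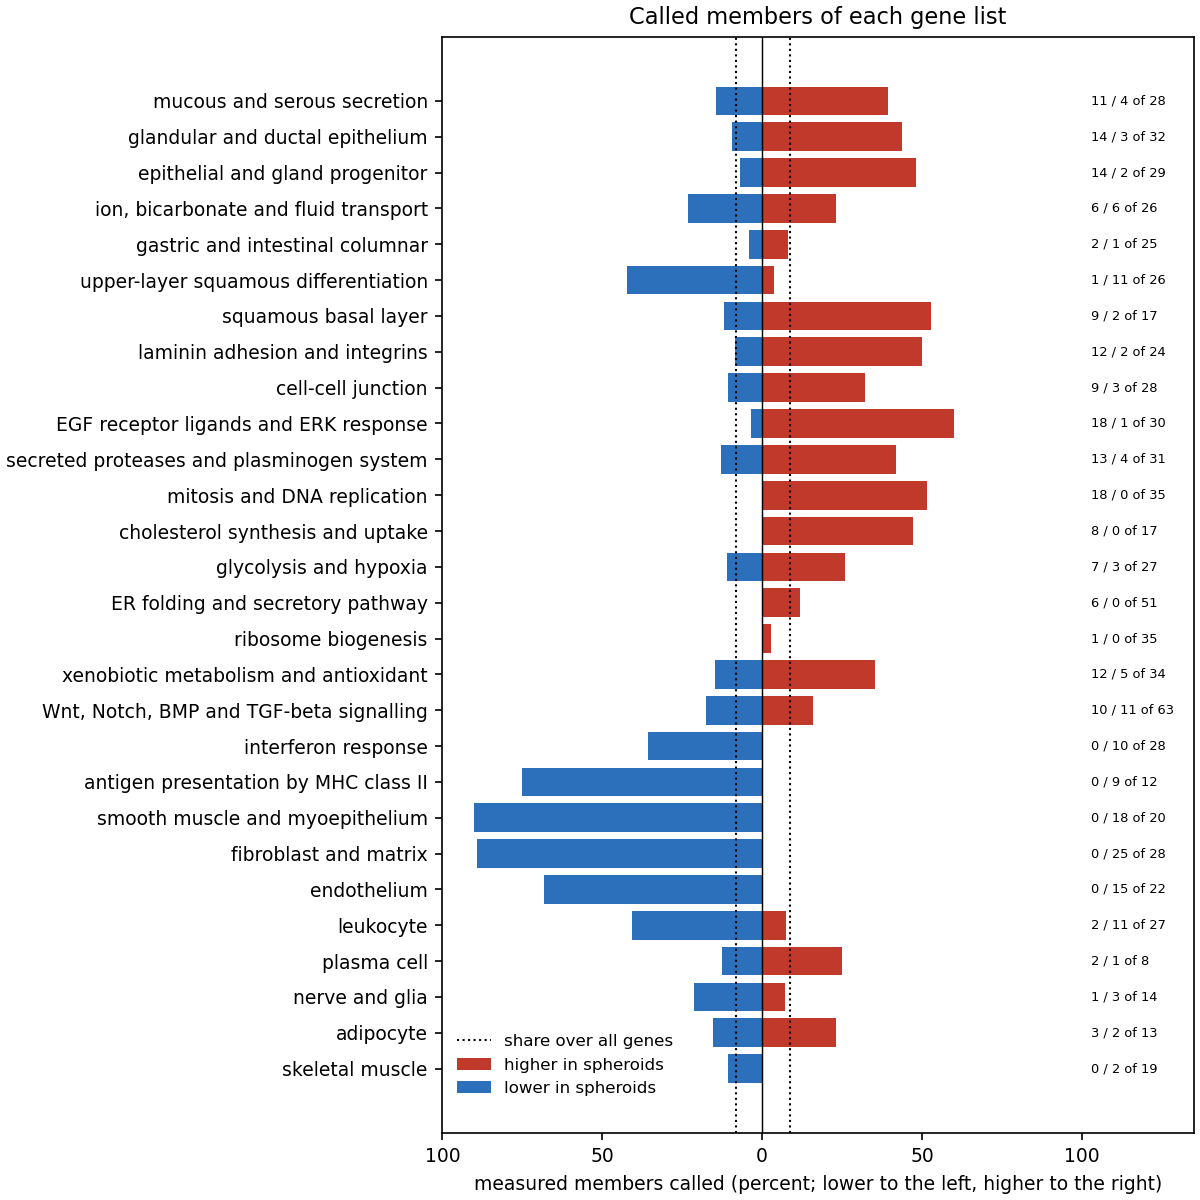
Number of measured genes called higher or lower in spheroids than in squamous tissue for each of the 28 gene lists, as a percentage of the list, with the share of all 12217 genes (8.61% higher, 8.05% lower) as dotted lines; the text at the right of each bar gives higher, lower and measured genes. The fibroblast, smooth muscle, MHC class II and endothelium lists lie far to the lower side, and the EGF, basal, progenitor, laminin and mitosis lists to the higher side.

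Outside the lists, the 10 largest rises with non-overlapping arrays included GABRP and SPP1. GABRP, a chloride channel subunit of glandular epithelia, was at 12.16, 12.22 and 12.69 in spheroids, 7.65, 5.30 and 6.18 in squamous tissue and 9.06 to 9.19 in ESMG. Its 63.0-fold difference (5.98, SE 0.43, adjusted p = 1.09e-06) was 6.61 without squamous pig 37. SPP1, the secreted phosphoprotein osteopontin, was at 12.67, 12.97 and 12.75 against 8.07, 7.04 and 7.40 (5.30, SE 0.27, 39.3-fold, adjusted p = 8.41e-08). The 10 largest falls included ABI3BP, a matrix-binding protein (52.9-fold), and ENPP2, the lysophospholipase autotaxin (37.7-fold). ESMG lay with squamous tissue for both, at 10.87 to 11.12 and 9.26 to 10.15.

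The fits of spheroids against ESMG and of ESMG against squamous tissue share arrays with the comparison above, so their values for the same genes are given side by side and are not separate evidence. ESMG against squamous tissue called 3.06% of genes and spheroids against ESMG 16.9%. Both counts come from the fit without a pig term, although ESMG and squamous arrays share pigs 37, 39 and 40, so the first does not use that pairing. For KRT8, ESMG differed from squamous tissue by 2.86 (adjusted p = 7.36e-05) and spheroids from ESMG by 0.26 (adjusted p = 0.453). For AGR2 these values were 6.05 (adjusted p = 0.000106) and -0.66 (adjusted p = 0.391), and for FOXA1 2.13 (adjusted p = 0.000587) and 0.31 (adjusted p = 0.37). A p above the threshold does not show that spheroids and ESMG were equal.

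Other genes set spheroids apart from ESMG as well. For PLET1, ESMG differed from squamous tissue by 0.44 (adjusted p = 0.457) and spheroids from ESMG by 7.71 (adjusted p = 1.38e-08). The pair was -0.50 and 6.06 for AREG, 0.78 and 5.84 for MMP13, 0.02 and 2.63 for LAMB3, and -0.22 and 2.75 for UBE2C. For gland products the pair was 5.62 and -5.92 for MUC19 and 2.30 and -2.40 for AQP5. CFTR, SOX9 and KRT19 had an ESMG level between squamous tissue and spheroids in the group means: 2.13 and 1.12 for CFTR, 1.56 and 0.75 for SOX9, and 2.65 and 1.87 for KRT19.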

How the data were processed

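Each of 9 value columns matched 1 sample, and 0 were left unmatched. The authors deposited log2 RMA values from Affymetrix Expression Console (gene level, full list), per the labels. The submitters' processing notes also name Transcriptome Analysis Console 3.0. Console version and genome build: not given in the sources used here. RMA makes arrays alike in distribution and compresses dim values; no detection call was used. Of 27558 probe sets, 13157 had 1 gene symbol, 523 several and 13878 none in the platform annotation; 12841 matched the RefSeq gene table (Sscrofa11.1). For 881 genes with several probe sets the brightest was used.

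A group-means model over 9 arrays (6 residual degrees of freedom) was fitted with lmFit and eBayes in limma 3.58.1 (R 4.3.3, statmod 1.5.0); all tests were two-sided. Python 3.11.15, numpy 2.4.6, pandas 2.3.3 and matplotlib 3.10.9 made tables and figures. The script was tested on simulated data. The members and 28 gene lists (707 of 1075 symbols measured) were chosen with earlier results of these data known. Named genes are a set of key genes, the 10 largest rises and falls among called genes with non-overlapping arrays, and, per list, up to 4 called members ranked by size of change; another 105 genes were picked with their values in view. Alternatives were other scalings, a filter on dim genes, 6 arrays, array weights, a variance prior, averaged probe sets, pig as a random block, and leaving out each array.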

Additional observations from a re-analysis of the deposited data

How the results depend on the processing

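Counts of called genes moved by more than 1.5-fold when the fold minimum was dropped, which gave 2879 higher and 2123 lower genes, 5002 in all. Over the other settings the total lay between 1783 (dimmest genes left out, with 8144 tested) and 2204 (array medians set equal). Higher and lower calls were 960 and 950 with quantile normalization, 891 and 1060 with cyclic loess and 1086 and 1052 with array weights. Leaving out each array in turn gave 1031 to 1106 higher genes, 934 to 1056 lower genes and 2027 to 2104 in all.

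No pig number is shared by a spheroid and a squamous array, so the replicate block could enter only as a random term. With this block 1051 genes were higher and 980 lower, and all 2031 were among the 2035. SCGB1D1 (adjusted p = 0.0532) lost its call.

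Of 110 genes named by the rule and 105 others, 8 called genes lost the call under at least 1 of 18 settings and 3 uncalled ones gained it (PROM1, S100A9 and JCHAIN). No called gene changed sign. AKR1C1, an aldo-keto reductase, fell from 2.65 to 0.85 and lost its call when its 3 probe sets were averaged. Array weights gave 0.92 for UCHL1, called at 1.06, and 0.72 for CFD, called at 1.11, both under the fold minimum. They moved other differences by more than 1.5-fold: GABRP to 5.01, CXCL8 to 5.25, PTGS2 to 4.42, MMP3 to 4.81, FMO2 to -5.75, IFI44 to -2.99, CXCL9 to -2.85 and CD36 to -2.87. Dim levels limit some genes: the lower side lay under the lower quartile of each spheroid and squamous array for PLET1, MUC1, MMP13, MMP12, MUC13, PGM5, MGP, ABI3BP, PDK4, ENPP2, CFTR, VSIG1, MMP3, AKR1C1, SFRP2, FRZB, CXCL9, RGS5, MS4A2, SCN7A, CDH19, UCHL1, LPL, CD36, SCGB1D1, PHEROC, LRIG1, AXIN2, CA6, ADAMTS9, IL24, C1S, FMO1 and CA8, so their folds depend on how RMA treats dim probes.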

Other observations

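Genes outside the lists, named after their values were seen, are given here as single genes, with no list behind them. CXCL2, a neutrophil attractant, was at 11.95, 12.31 and 11.93 in spheroids against 7.38, 6.82 and 7.73 in squamous tissue and 9.70 to 10.76 in ESMG (4.75, SE 0.29, 27.0-fold, limma adjusted p = 3.07e-07). IL18, an inflammasome cytokine, was 11.1-fold higher, AMCF-II, a pig neutrophil chemokine, 7.96-fold, IL24 7.73-fold and CCL20 6.34-fold. VTCN1, an inhibitor of T cell activation, was 13.2-fold higher, at 9.02, 9.60 and 9.99 against 6.04, 5.68 and 5.73. C1S, a complement protease, was 13.0-fold lower, C1R 9.89-fold, and their inhibitor SERPING1 7.66-fold, in the arrays in which fibroblast genes were also low. The part of fibroblast content in these values was not tested.

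Further genes were lower in spheroids. SPINK5, a protease inhibitor of cornified epithelia, was at 8.78, 8.78 and 7.97 in spheroids against 12.89, 12.79 and 12.99 in squamous tissue (-4.38, SE 0.21, 20.8-fold lower, adjusted p = 4.82e-08). The antimicrobial protein S100A7 was 28.1-fold lower, and the ceramide synthase CERS3 5.69-fold. ELOVL4, which makes very long fatty acids for barrier lipids, fell by 3.59 on the log2 scale. TXNIP and ARRDC4, arrestin-like brakes on glucose uptake, fell by 3.46 and 3.16 on the log2 scale. TXNIP was at 8.33, 8.51 and 7.89 against 11.25, 11.76 and 12.09, and ARRDC4 at 6.90, 6.88 and 6.88 against 10.07, 9.70 and 10.37. The flavin monooxygenase FMO1 was 31.3-fold lower. APOBEC1, an RNA editing enzyme of the intestine, was 20.3-fold higher (4.34, SE 0.23, adjusted p = 1.14e-07), and CA8, a carbonic anhydrase relative without activity, 21.4-fold higher.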
